A study of Mus musculus with 8 samples.

Results

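The alkaline phosphatase genes of the mouse were examined in crypts of the small intestine (SI) and the colon (COL). The group was taken by name, as the 4 symbols Alpi, Akp3, Alppl2 and Alpl matched from their Ensembl identifiers, and all 4 were found among the 45706 genes of the files. RNA-Seq had been performed on freshly isolated crypts, the epithelial pockets that hold stem and progenitor cells, from 4 wild type C57BL/6N mice. From every mouse there was a library of each tissue, giving 4 SI libraries (SI1 to SI4) and 4 COL libraries (COL1 to COL4). No mouse carried an engineered allele or received a treatment according to the labels, which give no age and no segment of the SI. The crypt isolation described for the organoid cultures starts from the proximal SI, scrapes off its villi and keeps the colon longer and in more EDTA.

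Alkaline phosphatases release inorganic phosphate from many substrates and sit on the outer face of the cell membrane, held by a glycosylphosphatidylinositol (GPI) anchor. Alpi encodes the intestinal enzyme that is found along the gut, and Akp3 encodes another intestinal enzyme, known from the duodenum. Alppl2 encodes the embryonic or germ-cell type, and Alpl the tissue-nonspecific type of bone, liver and kidney. In the gut the intestinal enzymes mark the brush border of differentiated enterocytes, remove phosphate from bacterial lipopolysaccharide and from extracellular nucleotides, and take part in fat absorption.

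Alppl2, Alpi and Akp3 lie side by side on chromosome 1, and Alpl lies alone on chromosome 4. In GENCODE vM21 coordinates of GRCm38, the assembly of mm10, Alppl2 (ENSMUSG00000026246) runs from 87086694 to 87089928 and Alpi (ENSMUSG00000079440) from 87098002 to 87101606, both on the minus strand. Akp3 (ENSMUSG00000036500) runs from 87124973 to 87127912 on the plus strand. The 3 genes thus fill 41.2 kb, with gaps of 8.07 kb and 23.4 kb between neighbours. Alpl (ENSMUSG00000028766) runs from 137741733 to 137796384 on the minus strand of chromosome 4. A pseudogene of the family, Akp-ps1, lies next to the cluster and had 0 counts in every library.

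The paralogs are close in sequence, which bears on how their reads could be told apart. Over aligned coding bases, Alpi was 81.5% identical to Akp3 and 81.7% identical to Alppl2, and Akp3 was 78.6% identical to Alppl2. Alpl was further away, with 64.5% to 66.1% identity to the other members. The longest identical coding run was 68 bases between Alpi and Akp3, 50 bases between Alpi and Alppl2 and 40 bases between Akp3 and Alppl2. The stretch of 150 coding bases around the first of these runs is shown because it holds the longest run shared by Alpi and Akp3. Alppl2 is set beside them, though its own longest runs with them lie elsewhere. It starts at coding base 73 of Alpi, 70 of Akp3 and 67 of Alppl2, and spans an intron in each gene (Alpi chr1:87101112-87101378, minus strand; Akp3 chr1:87125160-87125426, plus strand; Alppl2 chr1:87089354-87089609, minus strand; GRCm38). Sequences read 5′ to 3′ along the transcript, and capitals mark the 22 positions at which the 3 genes are not all the same.
Alpi: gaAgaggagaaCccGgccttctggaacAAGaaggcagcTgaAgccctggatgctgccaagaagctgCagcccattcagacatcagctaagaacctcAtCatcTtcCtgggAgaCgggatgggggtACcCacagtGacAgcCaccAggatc
Akp3: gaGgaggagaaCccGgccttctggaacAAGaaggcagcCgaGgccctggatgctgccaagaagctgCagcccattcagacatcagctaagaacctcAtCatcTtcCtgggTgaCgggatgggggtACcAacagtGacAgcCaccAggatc
Alppl2: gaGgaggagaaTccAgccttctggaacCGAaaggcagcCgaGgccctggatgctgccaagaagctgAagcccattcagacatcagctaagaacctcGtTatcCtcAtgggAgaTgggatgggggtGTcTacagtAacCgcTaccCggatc
At 17 of the 22 positions Alpi and Akp3 had the same base and Alppl2 another, at 3 Alpi stood apart, at 1 Akp3 did, and at 1 all 3 differed.

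Over whole transcripts little of the sequence was ambiguous. Of the 50-base stretches of the main coding transcript, 2.4% of those in Alpi, 2.15% of those in Akp3 and 0.147% of those in Alppl2 were also found, in either orientation, among the transcripts of other genes. None of the 50-base stretches of Alpl did. No 100-base stretch of any of the 4 transcripts was found elsewhere. The counts limit how far a highly covered paralog could have carried its neighbour along. SI3 held 63027 counts of Akp3 and Alpi but 1 count of Alppl2. The 4 COL libraries together held 799 counts of Alpi and 5 of Akp3, and SI4 held 7532 counts of Alpi and 37 of Akp3. Akp3 made up 0.39% of the counts of both genes in SI1 and 0.489% in SI4. Reads of Alpi counted as Akp3 at so low a rate cannot be told apart from low Akp3 expression. Alppl2 also lies within the body of the antisense transcript Gm29371, with 0 exonic bases in common.

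The promoters of the 3 clustered genes are shown because these genes had very different levels in the same libraries. They are the 250 bases before the start of each gene in RefSeq (build GRCm38.p6), read toward the gene (Alpi chr1:87101607-87101856, minus strand; Akp3 chr1:87124704-87124953, plus strand; Alppl2 chr1:87089929-87090178, minus strand). Capitals mark the 13-base run TTCAGTTCACAGG, the longest that all 3 share, and matches on either strand to the HNF4-type core, the TATA box and a variant of that box, whose letters are given after the sequences. These motifs were chosen after the sequences had been seen.
Alpi: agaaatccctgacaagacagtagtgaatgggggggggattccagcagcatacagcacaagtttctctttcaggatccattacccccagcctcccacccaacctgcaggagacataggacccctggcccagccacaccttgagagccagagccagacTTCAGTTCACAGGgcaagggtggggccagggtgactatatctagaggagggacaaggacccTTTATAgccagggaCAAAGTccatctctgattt
Akp3: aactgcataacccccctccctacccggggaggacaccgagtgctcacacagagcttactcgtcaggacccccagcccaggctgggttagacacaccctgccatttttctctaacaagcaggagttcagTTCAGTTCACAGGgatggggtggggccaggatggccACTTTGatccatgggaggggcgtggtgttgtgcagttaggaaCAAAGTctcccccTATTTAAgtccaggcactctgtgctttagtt
Alppl2: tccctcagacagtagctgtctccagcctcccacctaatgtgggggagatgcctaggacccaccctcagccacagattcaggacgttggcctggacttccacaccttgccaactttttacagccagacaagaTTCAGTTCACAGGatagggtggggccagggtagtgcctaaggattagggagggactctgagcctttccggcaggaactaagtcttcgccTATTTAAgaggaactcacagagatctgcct
The shared run begins 94 bases before the start of Alpi, 122 before that of Akp3 and 119 before that of Alppl2. It is held by 9 of all 32851 promoters of this length (0.0274%), among them the 3 from which it was defined. TATAAA, the TATA box, was found 33 bases before the start of Alpi, on the opposite strand, and is held by 12.4% of all promoters. The variant, TATTTAA, was found 31 bases before the start of Akp3 and 30 before that of Alppl2, and is held by 4.18%. CAAAGT, the core of an HNF4-type element, was found 19 bases before the start of Alpi and 44 and 86 bases before that of Akp3, and is held by 12.6% of all promoters. It was also found 214 bases before the start of Alpl, and not among these 250 bases of Alppl2. CACCC, the box of KLF-type factors, was found in all 3 and also in Alpl, and is held by 52% of promoters. A match is a description of the letters and no evidence of binding.

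Some features of the libraries touch the results below. Total counts ranged from 15969428 to 32908060, with medians of 26131950.5 in SI and 26204562.5 in COL. Levels are given as CPM, counts divided by the TMM-scaled library size and brought to a common total, in which 1 count was worth 0.0209 to 0.0622 CPM. Mitochondrial transcripts took 28.3% and 22.7% of the counts in SI2 and SI3, against 4.84% and 7.35% in SI1 and SI4. In COL they took 26.9%, 50.8%, 6.94% and 4.83% of COL1 to COL4. The sex labels went against the data: Xist, the RNA of the inactive X chromosome, was 89.5 to 478 CPM in the libraries of the mice labelled male and 0 to 0.381 CPM in those labelled female, while the Y-linked Ddx3y was 0 to 0.0267 and 24.4 to 41.6 CPM. SI2 and SI3 were both labelled male and both of high mitochondrial share, so that label and share cannot be told apart within SI. Gata4, a transcription factor of the SI, went with the tissue labels, at 48.3 to 52.9 CPM in SI and 0 to 0.188 CPM in COL. The 6 colonocyte markers were mixed: at an edgeR adjusted p below 0.05, 3 were higher in COL and 2 in SI. The latter were Krt20 and Mall, with log2 fold changes of SI over COL of 3.06 and 1.90 (edgeR adjusted p = 0.00653 and 0.0165). In these bulk libraries, fewer cells of a type and less RNA per cell cannot be told apart.

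Alpi was the alkaline phosphatase transcript that every library held. Its level was 878, 178, 843 and 345 CPM in SI1 to SI4 and 3.64, 3.73, 9.12 and 5.74 CPM in COL1 to COL4. SI2 was the lowest SI library and still far above COL3, the highest COL library. Mean levels were 561 ± 353 CPM for SI and 5.56 ± 2.57 CPM for COL (SD, n = 4 libraries each). SI exceeded COL by a log2 fold change of 6.65 ± 0.66 (SE), with a Benjamini-Hochberg adjusted p of 3.68e-05 in the quasi-likelihood test of edgeR. Of the 14491 genes tested, 28.4% differed at this threshold, 15.5% being higher in SI. In 17.8% of them all SI libraries lay above all COL libraries, as they did for Alpi. The difference in log2 CPM, with an offset of 0.1 CPM, was 7.88, 5.54, 6.51 and 5.88 within the 4 mice. Its mean of 6.45 gave p = 0.0286 in the two-sided exact permutation test over libraries, the smallest that 4 against 4 allow, and p = 0.125 in the exact sign-flip test by mouse, the smallest that 4 mice allow.

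Akp3 was also higher in SI and was far less even than Alpi. It was 3.44, 99.5, 2353 and 1.69 CPM in SI1 to SI4, from 76, 1647, 46406 and 37 counts. In COL1 to COL4 it was 0, 0, 0.0267 and 0.0838 CPM, from 0, 0, 1 and 4 counts. SI3 alone held most of the Akp3 counts, SI2 was intermediate, and SI1 and SI4 were low but above every COL library. Its SI mean was 614 ± 1160 CPM (SD, n = 4) around a median of 51.5 CPM, and its COL mean 0.0276 ± 0.0395 CPM (SD, n = 4). The log2 fold change of 13.91 (SE 2.73, edgeR adjusted p = 0.00265) was first in size toward SI among the 14491 genes. Akp3 passed the filter on low counts only through its SI libraries, so this call and rank are no separate support for a difference. With 0 to 4 counts per COL library, the size of the fold change rests on a baseline near 0. A block for the donor mouse gave 11.96 (edgeR adjusted p = 0.00233). Without SI3 it was 9.78 (SE 1.67, edgeR adjusted p = 0.00202). With limma-voom, limma being the tool named in the study's methods, it was 9.87 with a standard error of 5.41 and was not past the threshold (adjusted p = 0.186), while limma-voom with the block gave 10.92 (adjusted p = 0.000335). Within the 4 mice the log2 difference was 5.15, 9.96, 14.18 and 3.29, and its mean of 8.14 gave p = 0.0286 in the two-sided exact permutation test. The difference was smaller than that of Alpi in the mice of SI1 and SI4 and larger in those of SI2 and SI3. With an offset of 1 CPM its mean was 5.32, against 6.22 for Alpi, so the order of the genes by fold change depended on the offset.

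**Figure D1:**
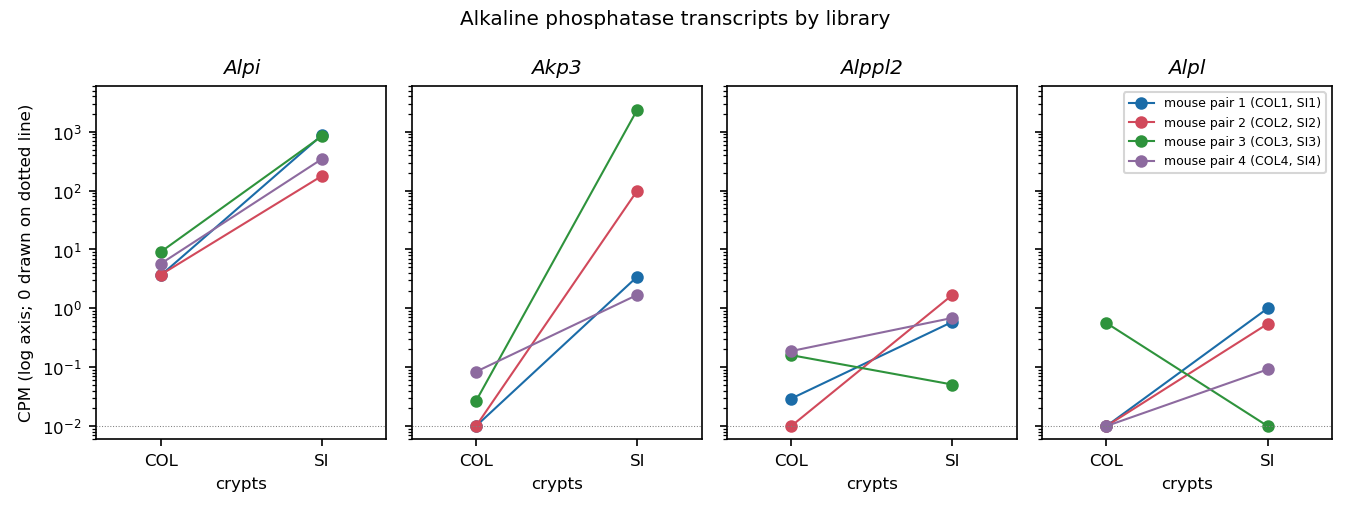
CPM of the 4 alkaline phosphatase genes on a log axis, with COL on the left and SI on the right of each panel. Points are single libraries, lines join the libraries of a mouse, and values of 0 are drawn on the dotted line. All 4 SI libraries lie above all COL libraries for Alpi and Akp3, whose SI values run from 1.69 to 2353 CPM, and the tissues overlap for Alppl2 and Alpl.

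Alppl2 and Alpl were close to the detection limit and under the filter on low counts, so neither entered the test across genes. Alppl2, the embryonic type, had 13, 28, 1 and 15 counts in SI1 to SI4 and 1, 0, 6 and 9 counts in COL1 to COL4. This corresponds to 0.589, 1.69, 0.0507 and 0.687 CPM in SI and 0.0293, 0, 0.16 and 0.188 CPM in COL. It was higher in SI in 3 of the 4 mice and lower in the mouse of SI3, the library with most Akp3. The difference in mean log2 CPM was 1.81 (two-sided exact permutation test, p = 0.0857). Without SI3, the 3 remaining SI libraries lay above all COL libraries, and the difference was 2.49 (p = 0.0286 in the exact permutation test, two-sided, the lowest value that 3 against 4 allow). Alppl2 then also passed the filter, but only through its counts in SI and with the library that went the other way left out. Its log2 fold change of 3.21 (SE 1.03, edgeR adjusted p = 0.0431) is therefore no separate support for a difference. With any other library left out the difference was 1.3 to 2.04 and not past the threshold (exact permutation p from 0.0857 to 0.171).

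Alpl, the tissue-nonspecific type, had 22, 9, 0 and 2 counts in SI1 to SI4 and 0, 0, 21 and 0 counts in COL1 to COL4. COL3 thus held all of the COL counts. The levels were 0.997, 0.544, 0 and 0.0916 CPM in SI and 0.562 CPM in COL3. It was higher in SI in 3 of the 4 mice, but the ranges overlapped and the difference in mean log2 CPM of 1.09 was within the spread of the libraries (two-sided exact permutation test, p = 0.371). At this depth no difference was detectable for Alpl.

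On a per-length scale, CPM per kb of exon, the order of the median levels in SI was Alpi at 254, Akp3 at 24.5, Alppl2 at 0.283 and Alpl at 0.0788. The neighbours Alpi and Akp3 overlapped, since Alpi ranged from 76 to 376 and Akp3 from 0.807 to 1120 CPM per kb. Akp3 and Alppl2 did not overlap, but the gap was narrow, with the lowest Akp3 library at 0.807 and the highest Alppl2 library at 0.75. Alppl2 and Alpl overlapped. In COL, Alpi at 1.56 to 3.9 CPM per kb lay above every other member, none of which passed 0.139 in any library.

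The make-up of the family differed between the SI libraries. Akp3 took 0.39% of the counts of the 4 genes in SI1 (95% Wilson interval 0.311 to 0.487), 35.6% in SI2 (34.3 to 37), 73.6% in SI3 (73.3 to 74) and 0.488% in SI4 (0.354 to 0.672). The intervals cover counting error only. Per kb of exon, the ratio of Akp3 to Alpi was 0.00436, 0.624, 3.11 and 0.00547 in the same order. Akp3 was therefore the major member in SI3, a large minor one in SI2 and a trace in SI1 and SI4. In COL1 to COL4, Alpi took 99.2%, 100%, 92.4% and 95.5% of the family's counts, out of 125, 60, 369 and 287.

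**Figure D2:**
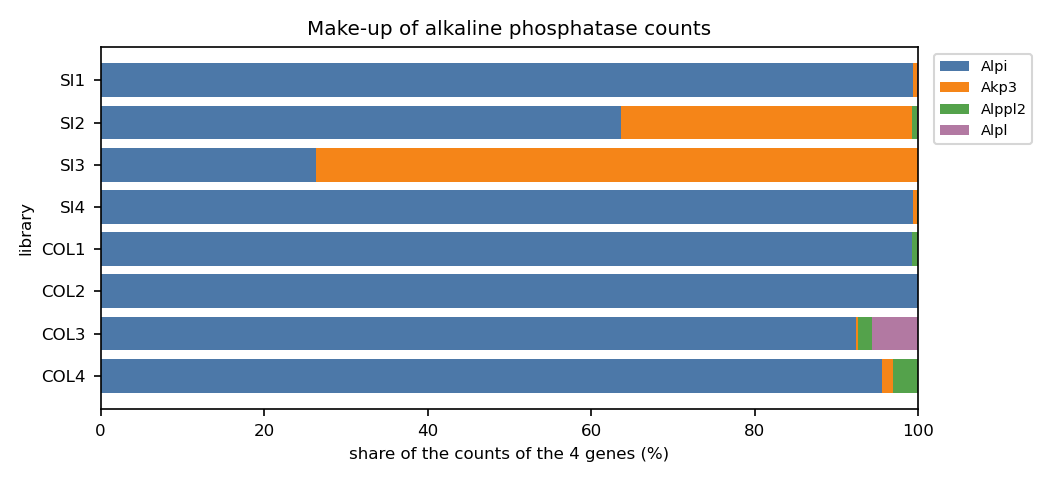
Share of the counts of the 4 genes taken by each gene (percent, x axis) in each library (y axis). Akp3 takes 35.6% in SI2 and 73.6% in SI3 but under 1% in SI1 and SI4, and Alpi takes 92.4% or more in every COL library.

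The spread of Akp3 between SI libraries was near the top of all genes. The range of its log2 CPM (prior count 2) among the 4 SI libraries was 10.38, rank 2 of 14491 genes. Xist was at rank 1 with 10.57 and the Y-linked Ddx3y at rank 3 with 9.13, both of which follow the sex of the animal. The range was 2.31 for Alpi and 1.12 for the median gene. In COL it was 1.31 for Alpi and 1.24 for the median gene, and the 0 to 4 counts of Akp3 per COL library were too few to give a range.

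**Figure D3:**
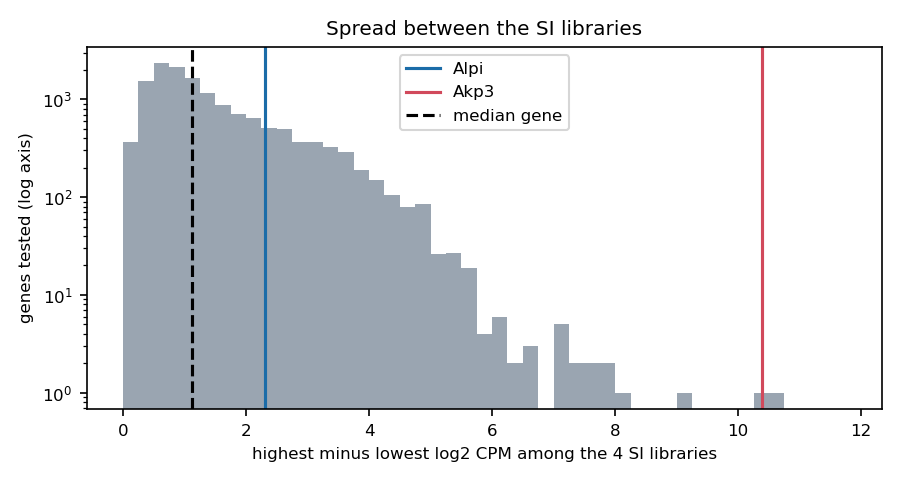
Histogram of the range of log2 CPM among the 4 SI libraries (x axis) over the 14491 genes tested (y axis, log scale). Lines mark Akp3 at 10.38, Alpi at 2.31 and the median gene at 1.12.

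Akp3 was higher in SI2 and SI3 than in SI1 and SI4, the same split as the label of sex and the mitochondrial share. In a fit with both tissue and labelled sex, its log2 fold change of SI over COL was 15.71 in the mice labelled male and 5.64 in those labelled female. The difference of 10.07 had a standard error of 3.12 and did not pass the threshold (unadjusted p = 0.0082, adjusted p = 0.909 from edgeR). No gene of the 14491 did so in this fit, and 761 had an unadjusted p-value under 0.05. Without the filter on low counts, 78 of 33110 genes passed, Akp3 among them (edgeR adjusted p = 0.000129). For Alpi the fold changes were 6.3 and 7.02, and their difference of -0.72 was within its standard error of 1.11. Among libraries of low mitochondrial share alone, the log2 fold change of Akp3 was 5.38 (edgeR adjusted p = 0.00866). Among those of high share it was 17.67 (edgeR adjusted p = 0.0037), but their COL libraries, COL1 and COL2, held 0 Akp3 counts. The size of that value is thus not fixed by the counts, and no usable standard error was obtained. Labelled sex and mitochondrial share split the SI libraries alike, so their parts in the spread of Akp3 cannot be told apart. The part of gut segment was not tested.

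Genes known to vary along the length of the SI were read beside Akp3, from lists chosen after the member values had been seen. Pdx1, a transcription factor of the duodenum, was 0.226, 4.53, 6.39 and 0.0916 CPM in SI1 to SI4, high in the libraries that were high for Akp3. It was under the filter, with at most 0.323 CPM in COL. S100g, the calcium-binding protein of the proximal gut, was 1.04, 10.9, 55 and 0.32 CPM in SI1 to SI4, and Slc40a1, the iron exporter, 2.36, 42.4, 261 and 10.1 CPM. Both split the SI libraries as Akp3 did, but both were lower in SI in all 4 mice, with log2 fold changes of -1.39 and -1.58 (edgeR adjusted p = 0.423 and 0.324, and 0.0164 for Slc40a1 with the mouse as a block). Slc34a2, an apical phosphate transporter, ran the other way, at 1241, 230, 7.6 and 845 CPM. The other proximal genes did not all follow Akp3. Onecut2, a transcription factor, was 58.8, 127, 119 and 39.7 CPM in SI1 to SI4, and Trpv6, a calcium channel, 0, 1.09, 0.355 and 0 CPM, both higher in SI2 and SI3. Unlike Onecut2, Trpv6 was lower in SI in all 4 mice and close to the detection limit there. Its log2 fold change was -2.64 (edgeR adjusted p = 0.103, and 0.0424 with the mouse as a block). Gata4 was even, at 52.9, 51.1, 49.4 and 48.3 CPM, and Cybrd1 was at 0.183 CPM or less. Ada and Lct were highest in SI1, at 2936 and 4461 CPM, and Ada was lowest in SI2, at 287 CPM.

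The genes of the distal SI were of both kinds. Fabp6, an ileal bile acid-binding protein, was 0 to 0.456 CPM in SI, Slc10a2, the ileal bile acid importer, 0.862 to 1.51 CPM, and Fgf15 had 0 counts in all 4 SI libraries. Cubn, a receptor for vitamin B12 uptake, was 294, 319, 212 and 285 CPM in SI1 to SI4. The bile acid exporter genes Slc51a and Slc51b were 428 to 733 and 57.8 to 109 CPM. Cubn, Slc51a and Slc51b were called higher in SI, and Fabp6 and Slc10a2 higher in COL.

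**Figure D4:**
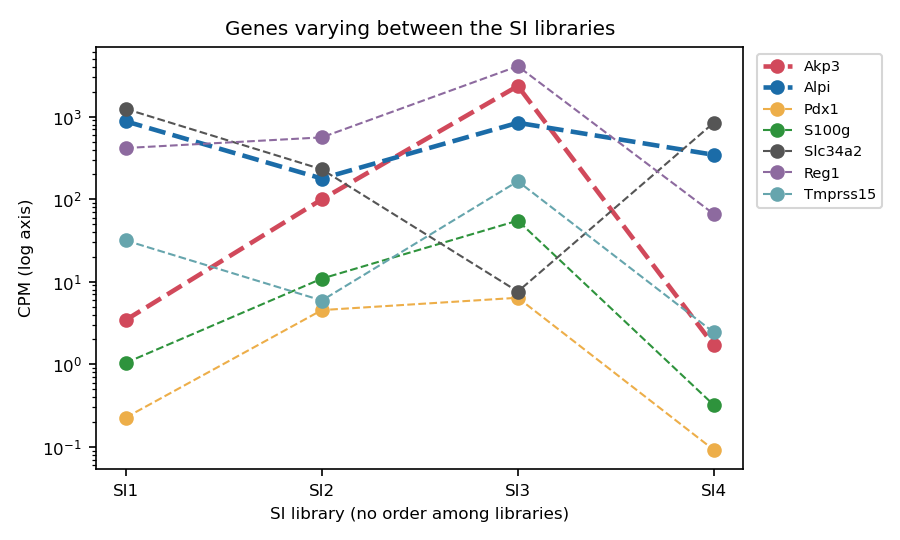
CPM (log axis) of Akp3, Alpi and 5 other genes in the 4 SI libraries (x axis, without order). Akp3, Pdx1 and S100g are highest in SI3 and low in SI1 and SI4, while Slc34a2 is lowest in SI3, at 7.6 CPM.

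The summed markers of cell types also moved between the SI libraries. Those of villus enterocytes, 9 genes of lipid uptake and digestion, summed to 140355, 53290, 61944 and 100447 CPM in SI1 to SI4 and to 275 to 951 CPM in COL, and all 9 were called higher in SI. Those of crypt stem cells summed to 30.7, 217, 310 and 218 CPM, those of Paneth cells to 373, 1802, 1139 and 815 CPM, and those of proliferating cells to 70.1, 440, 369 and 237 CPM in SI1 to SI4. SI1, which had the highest Alpi level, was thus the library with most enterocyte and least crypt-base RNA, but SI3 had nearly as much Alpi with less than SI4 of the enterocyte markers. Leukocyte markers summed to 45.1 to 89.9 CPM in SI and 14.8 to 39.7 CPM in COL. Neutrophil, stromal and endothelial markers each summed to 11.2 CPM or less in every SI library. The part of villus cells in the SI levels of Alpi and Akp3 was not tested.

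Over the 8 libraries, the genes whose pattern was most like that of Alpi were Ptafr, Dao, Prap1, Nr1i3 and Ephx2. Likeness was measured as the root mean square difference in centred log2 CPM, which was 0.49, 0.53, 0.54, 0.56 and 0.58 for these genes and 3.42 for the median gene. Ephx2, the soluble epoxide hydrolase, had 3154, 1045, 1745 and 1971 CPM in SI1 to SI4 and 17.5 to 65.5 CPM in COL. The genes nearest to Akp3 were further off, Reg1 at 1.78, Otop3 at 2.22, Tmprss15 at 2.40, Adh4 at 2.47 and Defa30 at 2.56, against 5.19 for the median gene. Reg1, a secreted lectin, was 417, 561, 4091 and 66.1 CPM in SI1 to SI4, and Tmprss15, the enteropeptidase of the duodenal brush border, was 31.6, 5.92, 165 and 2.43 CPM. Both were highest in SI3 and lowest in SI4, like Akp3. Alpi and Akp3 differed from each other by 3.11, which placed Akp3 at rank 4368 for Alpi and Alpi at rank 62 for Akp3.

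The genes around the cluster were mostly silent or not past the threshold. Within 100 kb lay 13 other annotated genes, of which 4 passed the filter. Of these 4, 0 were called by edgeR, DESeq2 or limma-voom, and 0 had an unadjusted edgeR p-value under 0.05. Over all genes tested, edgeR called 28.4%, so counts out of 4 genes say little about a neighbourhood. Eif4e2, a cap-binding protein, had a log2 fold change of 0.41 (SE 0.32), and Dis3l2, an exonuclease, had 0.18 (SE 0.28). With library size alone these were -0.39 and -0.57. Around Alpl, 2 of the 4 tested neighbours were called, Rap1gap, a GTPase activator of Rap1, at -3.44 and its antisense transcript Rap1gapos at -2.50 (edgeR adjusted p = 0.000273 and 0.0135). Whether the counting used the strand is not given in the sources used here, so reads of that antisense pair cannot be told apart.

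The members were then set beside 7 lists of genes that anchor, regulate or share substrates or location with alkaline phosphatases. Of 111 tested genes, 37 were higher in SI, 18 were higher in COL and 56 were not past the threshold, so that 49.5% were called against 28.4% of all genes. The lists differed widely, as the plot of their fold changes shows. Over all tested genes the median was -0.09, and scaling by library size alone moved it to -0.82. Under that scaling the calls were 25 toward SI and 29 toward COL. Among the named genes, Pigc, Pigg, Irak4, Ppa1, Pdxk, Rxra and Entpd8 were then no longer called, and Pigt, Gpld1, Enpp1 and Cdx2 were called higher in COL. The fold changes of Gpaa1, Ly96, Hnf4a and Mep1a, none of them called, then turned negative.

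**Figure D5:**
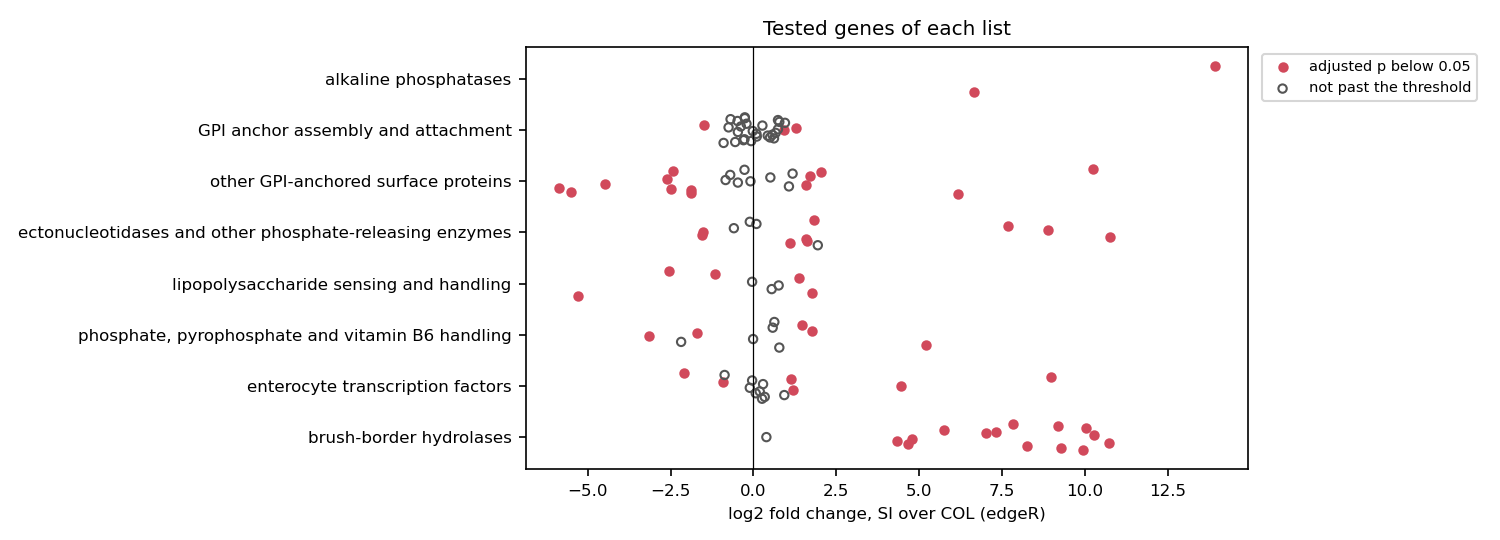
Log2 fold change of SI over COL (x axis, edgeR) for each tested gene of the alkaline phosphatases and of the 7 lists (y axis). Filled points had an adjusted p below 0.05 and open points did not. Brush-border hydrolases lie to the right with a median of 7.82, and genes of GPI anchor assembly lie around 0 with a median of -0.02.

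Other brush-border hydrolases, which share the apical membrane with Alpi, were the list nearest to it in fold change. Of 15 tested, 14 were higher in SI and 1, Mep1a (log2 fold change 0.39, standard error 0.50), was not past the threshold. The median log2 fold change was 7.82. Mme, the membrane endopeptidase neprilysin, had the largest at 10.73, with 1507, 704, 1224 and 1156 CPM in SI1 to SI4 and 0.311 to 1.24 CPM in COL. Lct, the lactase, followed at 10.28 and Anpep, aminopeptidase N, at 10.02. Tmprss15 was also called, at 9.28, though with limma-voom it was not (adjusted p = 0.0515).

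The machinery that builds and attaches the GPI anchor differed in few of its genes. Of 29 tested genes, 2 were higher in SI, 1 was higher in COL and 26 were not past the threshold, with a median of -0.02. Pigc, of the complex that starts the anchor, had a log2 fold change of 1.27 (edgeR adjusted p = 0.02), and Pigg, which modifies it, 0.92 (adjusted p = 0.0489, but 0.079 with the mouse as a block, from edgeR). Pgap2, a remodelling factor of the finished anchor, was higher in COL, at -1.48 (adjusted p = 0.00531). The transamidase that attaches anchors was not called in any of the subunits named, Gpaa1 at 0.74, Pigk at -0.47 and Pigt at -0.27, nor was Gpld1, which cleaves the anchor, at -0.48 (adjusted p from 0.133 to 0.533 from edgeR).

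Other proteins carried by GPI anchors changed in both directions. Of 21 tested, 5 were higher in SI, 8 were higher in COL and 8 were not past the threshold. Bst1, an ADP-ribosyl cyclase, was 293, 125, 155 and 245 CPM in SI1 to SI4 and at most 0.311 CPM in COL, a log2 fold change of 10.23. Vnn1, a pantetheinase, followed at 6.18 and Cd55, a complement regulator, at 2.03. Toward COL the largest were Ly6a at -5.86, the prion protein gene Prnp at -5.49 and Gpc1, a glypican, at -4.47.

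Ectonucleotidases and other enzymes that release phosphate or act on nucleotides gave 7 of 13 higher in SI, 2 higher in COL and 4 not past the threshold. Enpp7, the alkaline sphingomyelinase of the gut, had the largest log2 fold change, 10.76 (SE 1.77), with 2383, 1076, 272 and 2615 CPM in SI1 to SI4 and 0 to 3.22 CPM in COL. Enpp3, which splits extracellular nucleotides, had 8.87, and Ada, adenosine deaminase, 7.68. SI3 was the lowest SI library for Enpp7, whereas it was the highest for Akp3. Entpd8, an ATP-degrading enzyme of the apical membrane, was higher in SI by 1.60. Nt5e, which makes adenosine from AMP, was 329, 13.7, 12.3 and 63.1 CPM in SI1 to SI4 and 1.97 to 72.8 CPM in COL, with overlap of the tissues and a log2 fold change of 1.94 (SE 1.12, edgeR adjusted p = 0.225). Enpp5 and Enpp4 were higher in COL, at -1.55 and -1.51, and Enpp1, which makes pyrophosphate, was not past the threshold, at -0.59. Phospho1, a phosphatase of mineralizing cells, was under the filter at 0.456 CPM or less.

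Lipopolysaccharide, a substrate of intestinal alkaline phosphatase, is sensed through Cd14, Tlr4 and Ly96. Of 8 genes tested on this axis, 2 were higher in SI, 3 were higher in COL and 3 were not past the threshold. Tlr4, the signalling receptor, was 0, 0, 0 and 0.641 CPM in SI1 to SI4 and 3.96, 8.14, 8.8 and 6.05 CPM in COL1 to COL4, with a log2 fold change of -5.29 (SE 1.09, edgeR adjusted p = 0.00367). Cd14, which hands the ligand to the receptor, was 5.92 to 10.1 CPM in SI and 32.3 to 75.7 CPM in COL, at -2.56 (adjusted p = 0.000181). For both genes every SI library lay below every COL library, as in 15.7% of all genes, and thus opposite to Alpi. Ly96, the co-receptor, was not past the threshold, at 0.76 (SE 0.36). Downstream, the adaptor Ticam1 and the kinase Irak4 were higher in SI, at 1.77 and 1.37, and the kinase Irak1 was higher in COL, at -1.16.

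Of 10 genes of phosphate, pyrophosphate and vitamin B6 handling, 3 were higher in SI, 2 were higher in COL and 5 were not past the threshold. Slc34a2 was called at 5.20 (SE 1.12), although SI3, at 7.6 CPM, lay below every COL library, at 9.21 to 24.5 CPM. With the mouse as a block Slc34a2 was not past the threshold (edgeR adjusted p = 0.057). Pdxk, which phosphorylates vitamin B6, was 157, 116, 114 and 142 CPM in SI1 to SI4 and 42.7 to 59.3 CPM in COL, at 1.46. The pyrophosphatases went apart, with Ppa1, the cytosolic one, higher in SI at 1.76 and Ppa2, the mitochondrial one, higher in COL at -1.70. Slc20a1, a phosphate transporter, was higher in COL at -3.15.

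Of 15 transcription factors of enterocytes, 4 were higher in SI, 2 were higher in COL and 9 were not past the threshold. Gata4 had the largest log2 fold change, 8.98 (SE 0.64), with a mean of 50.4 ± 2.02 CPM in SI (SD, n = 4). Hnf4g, a nuclear receptor of enterocytes, was 899, 475, 622 and 716 CPM in SI1 to SI4 and 18.5 to 56.7 CPM in COL, at 4.44, whereas its paralog Hnf4a was at 0.29 (SE 0.31, edgeR adjusted p = 0.521). Rxra, a partner of nuclear receptors, was higher in SI by 1.18. Cdx1, a homeobox factor, was higher in COL, at -2.09. Klf4 at -0.11 (SE 0.38), Cdx2 at -0.87 (SE 0.36) and Thra, a thyroid hormone receptor, at 0.93 (SE 0.38) were not past the threshold. With the mouse as a block, Thra was (edgeR adjusted p = 0.0241).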

How the data were processed

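RNA-Seq of SI and COL crypts from 4 mice was used. The authors trimmed reads with Trimmomatic 0.36, aligned them to mm10 with STAR 2.5.2b, per the methods and the submitters' processing notes (which also list mm9), and deposited whole-number counts per Ensembl gene. The annotation release and strand setting are not given in the sources used here. Symbols came from GENCODE vM21 (563 of 45706 identifiers had no match), and promoters from RefSeq (GRCm38.p6, 1 entry for each of the 3 printed).

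In R 4.3.3, edgeR 4.0.16's quasi-likelihood test (TMM, filterByExpr by tissue with a minimum count of 10 and total of 15, Benjamini-Hochberg threshold 0.05) compared SI with COL, without a term for the mouse. Members under the filter were compared by exact permutation over all 70 assignments of the libraries, with an offset of 0.1 CPM. Coding sequences were aligned pairwise with Biopython 1.88, and with MAFFT 7.526 for the printed stretch. The fits were tested on simulated data.

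Within a tissue, any 2 libraries differed by more than sampling noise (chi-square per gene of 49.3 to 732), so none was counted as a repeat. The SI and COL libraries of a mouse share its donor number in the labels, where replicate 4 is donor mouse 5. Their deviations from the tissue means correlated at -0.24, 0.39, -0.08 and 0.33 across genes, and at -0.03 on average between different mice. Alternatives were other normalizations, DESeq2 1.42.0, limma-voom 3.58.1, the mouse as a block, other filters, the mitochondrial share as a covariate, removal of the 18 genes over 1% of a library and leaving out each library. Fits within a labelled sex or within high or low mitochondrial share (split at 15%) and an offset of 1 CPM were added after the data were seen.

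The members and lists were chosen with earlier results of these data known. Named genes are the members, the up to 3 largest called changes per list and direction that were alike in all 4 mice, genes tied directly to the enzymes, neighbours within 100 kb, and the 5 genes most like each tested member. The regional genes, and Tmprss15 and Mep1a among the brush-border hydrolases, were chosen after values were seen. A called gene of the enterocyte transcription factor list is not reported here by name.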

Additional observations from a re-analysis of the deposited data

Results flagged for a closer look

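Of 142 groups of 4 libraries, each a named gene in a tissue, 21 held a library far from the other 3, its gap to the nearest of them, as a share of the group's range, being above Dixon's 95% critical value. For normally distributed values of genes chosen without regard to these libraries, chance gives this in about 1 in 20 groups. CPM were used here without a log transform, so that rate need not hold. A group with counts in a single library gives a gap of 1 whatever the count. This was so for Alpl, Dao, Otop3 and Fgf15 in COL3 and for Tlr4 in SI4. Also, 11 of the 21 were in genes picked for likeness to Alpi or Akp3 over these libraries or chosen after values were seen (Otop3, Reg1, Adh4, Defa30, Ptafr, Dao, Slc40a1, Trpv6, Slc10a2 and Fgf15), so they are no separate evidence that a library stands apart. The gap was 0.958 of the range for Akp3 in SI3 and 1 for Alpl in COL3, the only COL library with an Alpl count. SI3 stood apart on the high side also for Otop3 (0.963), Ppa2 (0.889), Reg1 (0.877) and Slc40a1 (0.845). In the other SI libraries it was 0.862 for Ly6a in SI2, 0.84 for Nt5e and 0.83 for Ptafr in SI1, and 1 for Tlr4 and 0.931 for Slc10a2 in SI4. In COL3 it was 1 for Dao, Otop3 and Fgf15, 0.871 for Pdxk and 0.843 for Adh4. In COL2 it was 0.856 for Slc20a1, 0.832 for Klf4 and 0.83 for Defa30, and in COL4 it was 0.923 for Enpp7. In COL1 it was 0.876 for Trpv6.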

How the results depend on the processing

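Alpi was called higher in SI under every alternative run, with log2 fold changes of 5.88 to 7.07, and of 6.36 to 7.01 with each library left out. Akp3 kept its direction in all fits that held it, between 5.38 and 17.67, and between 9.78 and 15.19 with each library left out. The value of 17.67 came from libraries of high mitochondrial share alone. The COL libraries there held 0 Akp3 counts, so its size is not fixed by the counts. The call of Akp3 was lost with limma-voom without the block (9.87, adjusted p = 0.186 from limma-voom, the highest over its alternatives), so that 1 alkaline phosphatase was called. With at least 10 counts in every library Akp3 was not tested, and again 1 was called. DESeq2 gave Akp3 a log2 fold change of 14.25 without an adjusted p, so Akp3 could not be called there and 1 member was. With each library left out, 2 to 3 members, 50 to 58 list genes and 3167 to 4480 of all genes were called. Without SI3, the difference of Alppl2 rose to 2.49 past the threshold. With each library left out it was 1.3 to 2.49, and that of Alpl 0.53 to 1.77. Under the other alternatives they were 0.6 to 2.72 and 0.28 to 1.43, the lowest being those with an offset of 1 CPM, against 1.81 and 1.09. Blocking on the donor mouse gave 4072 genes, 53 list genes and the same 2 members. Among the named list and regional genes it ended the calls of Pigg and Slc34a2 and added Thra, Slc40a1 and Trpv6. Among the mice labelled male alone, 989 genes and 25 list genes were called. Among libraries of high mitochondrial share alone, 2264 genes were called. Library size alone gave 5903 genes, 1115 higher in SI and 4788 higher in COL, against 2253 and 1863. Without a filter, 1 member passed the test of tissue by labelled sex. Alppl2 and Alpl could not be fitted under most alternatives because they were under the filter. The Alppl2 and Alpl values rest on 0 to 28 counts per library, so counting error limits them, whereas the spread between mice limits Alpi and Akp3.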
